A study of Mus musculus with 4 samples.

Results

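Interferon-stimulated genes are the genes that cells switch on when interferon binds its receptors, and 46 of them were followed through 4 RNA-seq libraries of mouse pre-B cells. The 46 genes came from a fixed list of gene symbols and all 46 are among the 23284 symbols that carry a value in each library. The list was chosen with earlier results of these data known, so the shares of all genes given beside it are no independent test. By role they comprise 31 antiviral effectors, 5 sensors of foreign nucleic acid and 10 regulators of the response. Pre-B cells are bone marrow precursors of B lymphocytes. The 4 groups, with 1 library each, were all on the C57BL/6J strain. Cells labelled STAP-2 knockout and wild-type cells were taken 1 month after transplantation (both with 1 code in their titles), and STAP-2 transgenic and wild-type cells were taken from marrow at steady state (both with another code). STAP-2, encoded by Stap2, is a signal-transducing adaptor protein, and the study asked which pathways it acts on when blood formation is under stress. The sources used here do not give the promoter that drives the transgene, the age of the animals, the transplant hosts, the sorting gates or any pooling of animals. With 1 library per group no difference below has a replicate check, and no p-value can be given.

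Type I interferons signal through the receptor chains IFNAR1 and IFNAR2 and the kinases JAK1 and TYK2, which phosphorylate STAT2. With IRF9 it takes part in the complex ISGF3, which binds the interferon-stimulated response element in the promoters of the genes described here. Many of the products block virus entry, translation or replication, some detect viral RNA or DNA, and others, such as USP18, end the response. Cells keep a basal level of these genes without infection, and interferon acts on stem and progenitor cells of the marrow and on B lymphopoiesis.

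The deposited values are FPKM, a level scaled to transcript length and to sequencing depth, so levels may be compared between genes. Depth, estimated from the steps that 1 read makes among low genes, was between 7280000 and 8700000 reads, and 1 FPKM in a transcript of 1500 nt rested on 9.39 to 11.2 reads. The 46 genes rested on at least 21 reads each in the library labelled knockout, in transplanted wild type and in the transgenic library, whereas 5 of them had under 20 reads in steady-state wild type. A ratio below is a plain ratio of FPKM, with a 95% exact Clopper-Pearson interval computed on estimated reads. The interval covers counting error alone, and reads that carry no molecular identifier may stem from 1 molecule. Of the 46 genes, 16 have close paralogs with which reads may be divided (Oas1a, Oasl1, Oasl2, Ifit1, Ifit3, Mx1, Mx2, Gbp2, Gbp3, Gbp7, Slfn2, Slfn5, Slfn8, Trim30a, Ifi27l2a and Ifitm3), and their values are uncertain to that extent. The pre-B label was checked against 16 markers, of which all were at 1 FPKM or more except Vpreb2, listed at 0 in steady-state wild type. Their sum was 7950 FPKM in the library labelled knockout, 8450 in transplanted wild type, 8030 in the transgenic library and 8820 in steady-state wild type. Stap2 itself rested on 2 reads in the library labelled knockout and 0 in transplanted wild type, and on 5 in the transgenic library and 2 in steady-state wild type. These reads check neither the knockout nor the transgenic label, and directions below hold only as far as those labels do.

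The promoters are shown first because they hold the element through which interferon acts on many of these genes. RefSeq promoter windows of GRCm38.p6, 250 bases before to 50 bases after the annotated start, were at hand for 35 of the 46 genes. The core of the response element was searched as GAAA, any 2 bases and GAAA, and on the other strand as TTTC, any 2 bases and TTTC, with overlapping matches allowed. It was found in a window of 18 of the 35 genes, or 51.4%. The same letters stood in 3.99% of the 27025 genes with a window of that length, and in 3.82% of those at 1 FPKM or more in at least 1 library. The following stretches run 5′ to 3′ on the gene's strand, with up to 20 bases on each side and no base beyond the start, and capitals mark every match before the start, overlapping matches included.
Isg15, chr4:156200855-156200916, minus strand: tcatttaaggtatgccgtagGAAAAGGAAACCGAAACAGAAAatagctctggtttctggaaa
Oas1a, chr5:120907526-120907565, minus strand: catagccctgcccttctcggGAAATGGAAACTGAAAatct
Oas3, chr5:120777705-120777754, minus strand: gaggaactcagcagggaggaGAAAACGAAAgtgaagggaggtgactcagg
Ifit1, chr19:34640765-34640833, plus strand: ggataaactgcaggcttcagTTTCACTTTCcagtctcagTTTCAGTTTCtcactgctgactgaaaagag
Ifit3, chr19:34583353-34583436, plus strand: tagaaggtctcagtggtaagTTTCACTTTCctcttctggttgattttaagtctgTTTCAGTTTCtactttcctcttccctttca
Bst2, chr8:71537567-71537622, minus strand: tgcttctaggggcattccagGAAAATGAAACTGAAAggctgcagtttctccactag
Gbp7, chr3:142530263-142530312, plus strand: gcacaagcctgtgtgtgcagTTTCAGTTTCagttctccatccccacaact
Rsad2, chr12:26456543-26456592, minus strand: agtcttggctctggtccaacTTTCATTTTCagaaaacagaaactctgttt
Stat2, chr10:128270256-128270305, plus strand: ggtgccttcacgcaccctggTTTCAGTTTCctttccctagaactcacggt
Isg15 carries 3 overlapping matches, of which the first starts 78 bases before the gene start, and Ifit1 and Ifit3 carry 2 matches each in the other orientation. Stat2 is shown because it holds the letters and yet had nearly the same level in the 4 libraries, as described below. A match is a stretch of letters and not a measured binding site.

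The lowest library was wild type at steady state. Of the 46 genes, 45 had their lowest value there, including all 31 effectors, all 5 sensors and 9 of the 10 regulators, whereas that library was lowest for 22.3% of the 11053 genes at 1 FPKM or more in any library. The exception was Stat2, lowest in the library labelled knockout, which was lowest for 30.5% of all genes. Transplanted wild type and the transgenic library, lowest for 24.6% and 22.1% of all genes, were lowest for none of the 46. The median level of the 46 genes was 19.8 FPKM in the library labelled knockout, 21.01 in transplanted wild type, 17.9 in the transgenic library and 8.63 in steady-state wild type. For a typical gene, the lowest of the other 3 libraries stood 0.73 above steady-state wild type on the log2(FPKM + 1) scale, and those 3 libraries spanned 0.29 among themselves. The median of all genes for the same measures was -0.14 and 0.24. The highest value lay in the library labelled knockout for 19 of the 46 genes, in transplanted wild type for 22 and in the transgenic library for 5, whereas these libraries were highest for 22.0%, 26.5% and 19.9% of all genes. Steady-state wild type, highest for 31.6% of all genes, was highest for none of the 46. In these bulk samples, fewer cells that express a gene and less RNA per cell cannot be told apart.

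**Figure D1:**
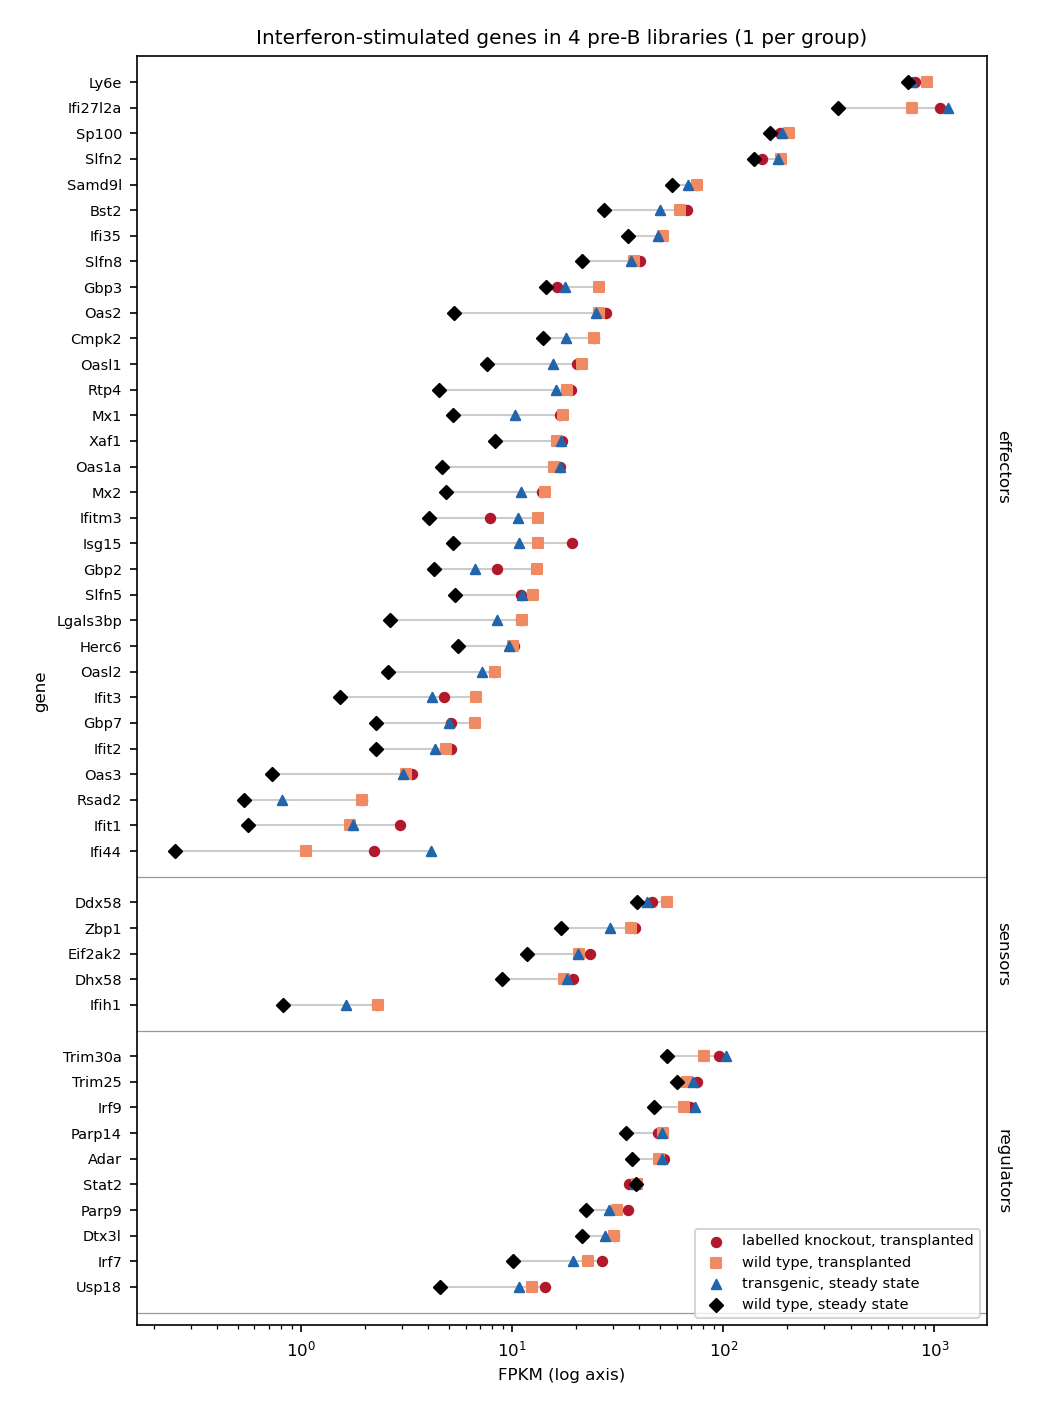
Level of each of the 46 interferon-stimulated genes in FPKM (log axis) in the 4 libraries, 1 point per library, ordered within each role by the level in transplanted wild type. The black diamonds of steady-state wild type are lowest for every gene except Stat2, with Oas2 at 5.30 FPKM there and between 24.9 and 27.8 FPKM in the other 3 libraries.

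The oligoadenylate synthetases, which sense double-stranded RNA and activate the nuclease RNase L, were far lower in steady-state wild type than in the other 3 libraries. Oas2 was at 27.8 FPKM in the library labelled knockout, 25.6 in transplanted wild type, 24.9 in the transgenic library and 5.30 in steady-state wild type. Oas1a was at 16.8, 15.7 and 16.8 FPKM in the library labelled knockout, transplanted wild type and the transgenic library, against 4.63 in steady-state wild type. Oas3, the largest synthetase of the family, had 3.34, 3.14 and 3.02 FPKM in the same 3 libraries and 0.726 in steady-state wild type, the last from about 24 reads. For these 3 genes the other libraries spanned only 0.09 to 0.16 on the log2 scale, and the transgenic to wild-type ratio was 4.69 for Oas2 (3.91 to 5.66), 3.63 for Oas1a (2.69 to 4.95) and 4.16 for Oas3 (2.64 to 6.80). Oas2 and Oas3 lie side by side on chromosome 5 (120730333 to 120777661, GRCm38). The synthetase-like genes Oasl2 and Oasl1, of which mouse Oasl1 encodes no active enzyme, lie elsewhere on the same chromosome (114896936 to 114937915). Oasl2 was at 8.21 FPKM in the library labelled knockout, 8.23 in transplanted wild type, 7.19 in the transgenic library and 2.56 in steady-state wild type. Oasl1, which holds back translation of Irf7 in mouse, was at 20.3, 21.3 and 15.6 FPKM in those 3 libraries and 7.62 in steady-state wild type.

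The IFIT proteins bind viral RNA that lacks the marks of host messenger RNA, and their genes form a cluster on chromosome 19 (34550694 to 34650009). All 3 were low in pre-B cells. Ifit2 was at 5.11 FPKM in the library labelled knockout, 4.86 in transplanted wild type, 4.30 in the transgenic library and 2.26 in steady-state wild type. Ifit3 was at 4.76, 6.70, 4.15 and 1.52 FPKM in the library labelled knockout, transplanted wild type, the transgenic library and steady-state wild type, and Ifit1 at 2.94, 1.70, 1.75 and 0.561 FPKM in those libraries. Steady-state wild type was thus below the others for each of the 3, on 10 reads for Ifit1 and 17 for Ifit3. The transgenic to wild-type ratio was 1.90 for Ifit2 (1.38 to 2.64), 2.72 for Ifit3 (1.53 to 5.08) and 3.13 for Ifit1 (1.49 to 7.15).

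Among the antiviral GTPases, Mx1 and Mx2 are dynamin-like proteins that trap virus components. C57BL/6 mice carry a defective Mx1 gene, so its transcript serves here as a readout of induction only, and the annotation lists Mx2 as a polymorphic pseudogene. Mx1 was at 16.9 FPKM in the library labelled knockout, 17.4 in transplanted wild type, 10.3 in the transgenic library and 5.26 in steady-state wild type. Mx2, which neighbours it on chromosome 16 (97447035 to 97560900), was at 13.9, 14.3, 11.0 and 4.87 FPKM in those libraries. Here the transgenic library lay between steady-state wild type and both transplanted libraries. The guanylate-binding proteins coat pathogens and their vacuoles and respond strongly to interferon gamma as well. Their 3 genes on chromosome 3 (142530342 to 142638008) were highest in transplanted wild type. Gbp3 was at 16.3 FPKM in the library labelled knockout and 25.6 in transplanted wild type, and at 17.8 in the transgenic library and 14.4 in steady-state wild type. Gbp2 was at 8.45 FPKM in the library labelled knockout and 13.1 in transplanted wild type, and at 6.67 in the transgenic library and 4.25 in steady-state wild type. Gbp7 was at 5.10 and 6.66 FPKM in the same transplanted libraries, and at 5.01 in the transgenic library and 2.25 in steady-state wild type.

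Isg15 encodes a ubiquitin-like protein that is joined to viral and host proteins, and Herc6 the ligase that joins it in mouse. Isg15 was at 19.1 FPKM in the library labelled knockout and 13.2 in transplanted wild type, and at 10.8 in the transgenic library and 5.23 in steady-state wild type. Herc6 was level in the first 3 of these libraries, at 10.2, 10.1 and 9.68 FPKM, against 5.51 in steady-state wild type. Of the membrane proteins, tetherin, encoded by Bst2, holds budding virus at the cell surface. Bst2 was at 67.2 FPKM in the library labelled knockout and 62.2 in transplanted wild type, and at 50.04 in the transgenic library and 27.1 in steady-state wild type. Ifitm3, which blocks fusion of viruses with endosomes, was at 7.85 FPKM in the library labelled knockout and 13.2 in transplanted wild type, and at 10.6 in the transgenic library and 4.03 in steady-state wild type, on 14 to 48 reads. Ly6e, a GPI-anchored protein gene that was the highest of the 46 in transplanted wild type, differed little. It was at 811 FPKM in the library labelled knockout and 922 in transplanted wild type, and at 779 in the transgenic library and 746 in steady-state wild type.

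The Schlafen genes, which act in lymphocyte quiescence and restrict virus replication, lie in a cluster on chromosome 11 (82951349 to 83070678). Slfn8 was at 40.4 FPKM in the library labelled knockout, 37.7 in transplanted wild type, 36.4 in the transgenic library and 21.4 in steady-state wild type. Slfn5 was at 10.9, 12.5, 11.2 and 5.36 FPKM in the same libraries, and Slfn2, which mouse T cells need to remain quiescent, at 152, 187, 182 and 140 FPKM. Slfn5 was thus 2.08-fold (1.77 to 2.45) and Slfn2 1.30-fold (1.21 to 1.39) higher in the transgenic library than in steady-state wild type. The 10 remaining effectors varied widely in their gaps. Ifi27l2a, which encodes a small membrane protein, was the most abundant effector beside Ly6e, at 1065 FPKM in the library labelled knockout and 783 in transplanted wild type, and at 1163 in the transgenic library and 348 in steady-state wild type. Its transcript of 463 nt is short for a length-normalised value. Rtp4, a chaperone of receptors that also restrains the interferon response, was at 18.97 FPKM in the library labelled knockout, 18.2 in transplanted wild type, 16.0 in the transgenic library and 4.50 in steady-state wild type. Lgals3bp, a secreted glycoprotein gene, was at 11.0 FPKM in both transplanted libraries, 8.42 in the transgenic library and 2.64 in steady-state wild type.

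Ifi44 varied most of the 46 genes among the 3 libraries other than steady-state wild type, at 2.22 FPKM in the library labelled knockout, 1.05 in transplanted wild type, 4.13 in the transgenic library and 0.253 in steady-state wild type. Only about 5 reads stood behind the last value. Rsad2, the gene of viperin, which makes a chain-terminating nucleotide, and Cmpk2, a mitochondrial nucleotide kinase gene that supplies its substrate, are neighbours on chromosome 12 (26442746 to 26479837). Rsad2 was at 1.93 FPKM in the library labelled knockout and 1.95 in transplanted wild type, and at 0.807 in the transgenic library and 0.534 in steady-state wild type. Cmpk2 was at 24.5 and 24.3 FPKM in the same transplanted libraries, and at 17.9 in the transgenic library and 14.0 in steady-state wild type. In both genes the transplanted libraries were nearly level, and the transgenic library was nearer to steady-state wild type than to them. Xaf1, a pro-apoptotic gene, was at 17.1, 16.3 and 17.1 FPKM in the library labelled knockout, transplanted wild type and the transgenic library, against 8.28 in steady-state wild type. Ifi35, the nuclear body gene Sp100 and the sterile alpha motif gene Samd9l were 1.14-fold to 1.39-fold higher in the transgenic library than in steady-state wild type.

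The sensors were also lowest in steady-state wild type, where the lowest of the other 3 libraries stood a median of 0.73 above it, beside 0.85 for effectors and 0.43 for regulators. Dhx58 (LGP2), a helicase that tunes the other RNA sensors, was at 19.4 FPKM in the library labelled knockout, 17.5 in transplanted wild type, 18.2 in the transgenic library and 8.97 in steady-state wild type. Eif2ak2, the gene of the kinase PKR that stops translation on double-stranded RNA, was at 23.3, 20.7, 20.5 and 11.7 FPKM in those libraries. Zbp1, a sensor of left-handed nucleic acid that can start necroptosis, was at 38.1 FPKM in the library labelled knockout and 36.6 in transplanted wild type, and at 29.0 in the transgenic library and 17.1 in steady-state wild type. Ifih1 (MDA5), a sensor of long RNA, was low, at 2.27 and 2.31 FPKM in the same transplanted libraries, 1.63 in the transgenic library and 0.819 in steady-state wild type. Ddx58 (RIG-I), which detects RNA ends with a triphosphate, was the most abundant sensor and had the smallest gap to steady-state wild type. It was at 45.9 FPKM in the library labelled knockout and 54.0 in transplanted wild type, and at 43.3 in the transgenic library and 39.1 in steady-state wild type, a transgenic to wild-type ratio of 1.11 (1.02 to 1.21). Between the transplanted libraries it differed most of the 5 sensors, with a labelled knockout to wild-type ratio of 0.85 (0.791 to 0.913). None of the 5 sensors was 2-fold apart between transgenic and wild type at steady state, and their median difference was 0.73.

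Of the regulators, Usp18, Trim30a and Irf7 had the largest differences between transgenic and wild type. Irf7, the factor that amplifies interferon production, was at 26.6 FPKM in the library labelled knockout and 22.8 in transplanted wild type, and at 19.3 in the transgenic library and 10.1 in steady-state wild type. Usp18, which removes ISG15 and blocks the receptor chain IFNAR2, was at 14.2 and 12.5 FPKM in the same transplanted libraries, and at 10.7 in the transgenic library and 4.54 in steady-state wild type. Trim30a, a mouse inhibitor of Toll-like receptor signalling with close paralogs, was at 95.4 FPKM in the library labelled knockout, 81.3 in transplanted wild type, 103 in the transgenic library and 54.1 in steady-state wild type. The transgenic to wild-type ratios were 1.92 for Irf7 (1.54 to 2.40), 2.37 for Usp18 (1.70 to 3.34) and 1.90 for Trim30a (1.78 to 2.02). For Trim30a the ratio of transplanted to steady-state wild type was smaller, at 1.5 (1.40 to 1.61). The 2 members of ISGF3 on the list differed from each other. Irf9 was at 69.1 FPKM in the library labelled knockout, 64.8 in transplanted wild type, 73.4 in the transgenic library and 46.8 in steady-state wild type, a transgenic to wild-type ratio of 1.57 (1.43 to 1.72). Stat2 was at 35.8, 38.9, 38.2 and 38.4 FPKM in those libraries, with a ratio of 0.995 (0.916 to 1.08). The ADP-ribosyltransferase genes Parp9 and Parp14 and Dtx3l, the ubiquitin ligase partner of PARP9, lie together on chromosome 16 (35832874 to 35972605) and had ratios of 1.28, 1.48 and 1.28. Adar, which edits double-stranded RNA so that it is not sensed, had a ratio of 1.38 (1.29 to 1.47), and Trim25, the ligase that activates RIG-I, one of 1.19 (1.13 to 1.26).

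The comparison of transgenic with wild-type cells at steady state involves no transplantation. It bears on added STAP-2 at most as far as the transgenic label holds, which the reads of Stap2 did not check. With 1 library per group, a difference between genotypes cannot be told apart from one between animals or preparations. Genes were taken at 1 FPKM or more in at least one of the pair, which 45 of the 46 reached, Rsad2 being under that level in both. Of the 45, 44 were higher in the transgenic library, against 46.7% of the 10843 genes that passed the same filter, and 1 was lower (Stat2), against 53.3%. At least 2-fold higher on the log2(FPKM + 1) scale were 12, against 1.22% of all genes, and none was 2-fold lower, against 0.682%. The median difference was 0.82, beside -0.02 for all genes. Of the 45, 4 passed the filter through the transgenic library alone (Ifit1, Oas3, Ifi44 and Ifih1). Among the 41 at 1 FPKM or more in both libraries, 40 were higher, 10 at least 2-fold, and the median was 0.76, and 0.551% of all genes at that level in both libraries were 2-fold higher. Effectors had the largest median (0.90, 11 of 30 at least 2-fold higher), then sensors (0.73, 0 of 5) and regulators (0.50, 1 of 10, Usp18). Levels ran the other way, with median log2(FPKM + 1) in transplanted wild type of 4.06 for effectors, 4.44 for sensors and 5.49 for regulators. The parts of role and level in this order were not tested. With a pseudocount of 0.1 in place of 1 the count of 2-fold genes was 19, and without genes that have close paralogs it was 6 of 29. Stat2 changed sign between scalings (difference -0.01 as deposited and 0.01 after scaling by the median of gene ratios), and Ly6e was 0.06 higher as deposited and 0.06 lower after rescaling to the same sum, which moved the median of all genes to -0.13.

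**Figure D2:**
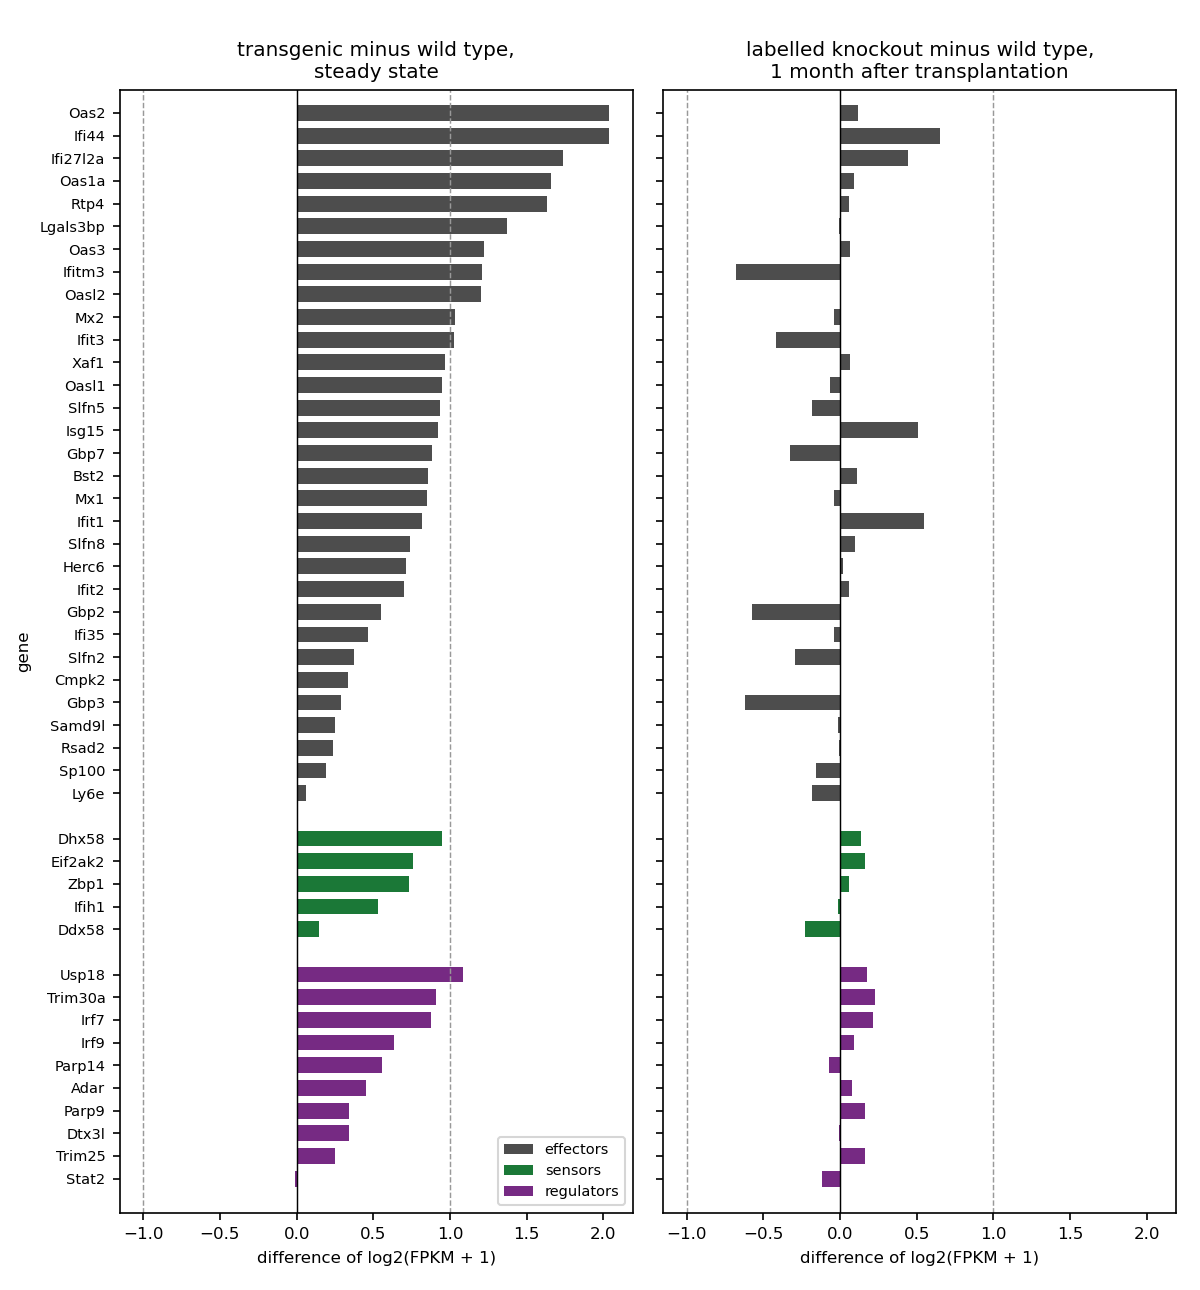
Difference of log2(FPKM + 1) for each of the 46 genes, transgenic minus wild type at steady state (left) and labelled knockout minus wild type after transplantation (right), with genes in the same order in both panels and colours for roles. Dashed lines mark 2-fold on that scale; on the left 12 of the 45 genes that passed the filter reach it and on the right none does.

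The size of the gap went with the level of the gene. Taking the level from the transplanted libraries, which this difference does not use, Spearman's rho across the 46 genes between level and the transgenic minus wild-type difference was -0.42. This is a description across genes, which share the same 2 libraries in each measure and are not independent. Of the 18 genes at a mean of 30 FPKM or more in the transplanted libraries, a division chosen after the values were seen, 1 was at least 2-fold higher in the transgenic library (Ifi27l2a), at a median of 0.41. Of the 27 tested genes below that level 11 were, at a median of 0.94. Among genes with promoter windows, the 17 tested ones that held the core element had a median of 0.86 and the 17 without it one of 0.64, with overlapping ranges of -0.01 to 1.66 and 0.19 to 2.03.

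Between the library labelled knockout and wild type, both after transplantation, the 46 genes were about level. Of these, 24 were higher and 22 lower in the library labelled knockout, against 44.0% and 56.0% of all genes, at a median of 0.01 beside -0.03 for all genes. None was 2-fold higher or lower, against 0.667% higher and 1.18% lower among the 10790 genes tested. The division into 24 and 22 depended on scaling, being 35 and 11 after rescaling to the same sum and 30 and 16 after scaling by the median of gene ratios. Over all genes, the counts of 72 at least 2-fold higher and 127 lower became 117 and 105 after rescaling to the same sum. The ratio's interval lay above 1 for 8 genes, against 15.2% of the 10661 genes with an interval, below 1 for 11, against 22.1%, and held 1 for 27. Both shares of the 46 were near those of all genes. Highest in relative terms were Ifi44 (ratio 2.11, 1.26 to 3.65), Ifit1 (1.73, 1.11 to 2.74), Isg15 (1.45, 1.03 to 2.06) and Ifi27l2a (1.36, 1.27 to 1.45). Lowest were Ifitm3 (0.595, 0.368 to 0.95), Gbp3 (0.636, 0.553 to 0.731), Gbp2 (0.646, 0.529 to 0.794), Ifit3 (0.71, 0.506 to 1.0) and Gbp7 (0.766, 0.644 to 0.916). These 9 genes kept their direction under each of the 3 rescalings run, but they were picked as the most extreme. Rescaling to the same sum moved the median of all genes only from -0.03 to 0.06, so their signs could hardly change. Oas2, Oas1a, Oas3, Oasl1 and Oasl2 had ratios of 0.952 to 1.09, each with an interval that held 1. The part of other cell types in these differences was not tested, and their markers are given further on.

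**Figure D3:**
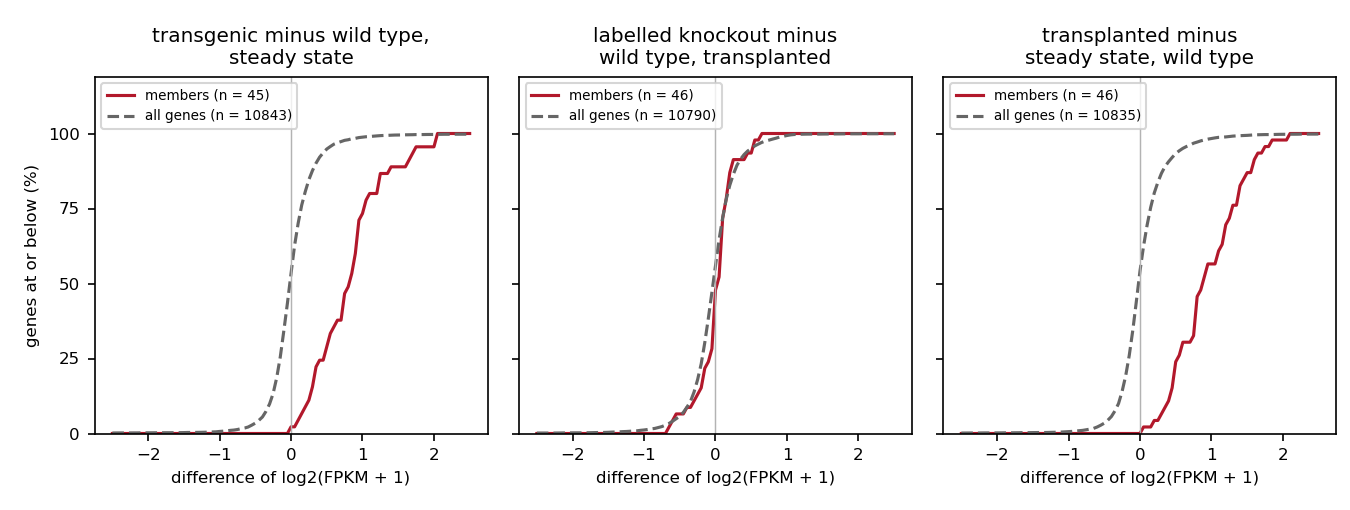
Share of genes (percent) at or below each difference of log2(FPKM + 1) in the 3 comparisons, for the interferon-stimulated genes (solid) and for all genes that reached 1 FPKM in at least one of the pair (dashed). The solid curve lies to the right of the dashed one in the left and right panels (medians 0.82 and 0.88) and along it in the middle one (median 0.01).

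Transplanted and steady-state wild type differ in the code of their titles as well as in transplantation, so the condition and whatever the code stands for cannot be told apart. This comparison also shares steady-state wild type with the transgenic one, and its values stand beside those above for that reason only. All 46 genes were higher in transplanted wild type (45 after rescaling to the same sum, with Stat2 lower), against 45.9% of 10835 genes, and none was lower as deposited, against 54.1%, at a median of 0.88 beside -0.02 for all genes. At least 2-fold higher were 20, against 1.67% of all genes, and none was 2-fold lower, against 0.628%. Of the 46, 5 passed the filter through transplanted wild type alone (Ifit1, Oas3, Rsad2, Ifi44 and Ifih1). Among the 41 at 1 FPKM or more in both libraries, 19 were at least 2-fold higher, against 1.10% of all genes at that level in both. Of the 20, 17 were effectors, 1 was a sensor (Zbp1) and 2 were regulators (Irf7 and Usp18). The 5 oligoadenylate synthetase genes were all among them. Oas2 had a ratio of 4.83 (4.04 to 5.82), Lgals3bp of 4.18 (2.98 to 6.04) and Rtp4 of 4.05 (2.92 to 5.74), whereas Stat2 had one of 1.01 (0.936 to 1.10). The count was 9 of 30 without genes that have close paralogs and 13 of 36 without genes that myeloid or plasmacytoid dendritic cells also express.

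The rest of the pathway was described from lists of genes that hold none of the 46. Interferon genes themselves were hardly detected at this depth. Of 17 in the files, 16 were listed at 0 in the library labelled knockout, 15 in transplanted wild type, 16 in the transgenic library and 16 in steady-state wild type. Ifng, the gene of interferon gamma, was at 0.691 FPKM in the library labelled knockout, 1.03 in transplanted wild type, 0.275 in the transgenic library and 0.546 in steady-state wild type, on 2 to 8 reads, and Ifnz had 1 read in transplanted wild type. The 8 receptor and kinase genes had a median difference of -0.02 between transgenic and wild type, with 4 higher and 4 lower and none 2-fold apart, and Jak1 stood at 83.2 FPKM in the transgenic and 90.2 in steady-state wild type. Of 7 transcription factor genes, 2 were higher and 5 lower in the transgenic library (median -0.03). Irf8 and Irf2, factors that B cells use throughout development, had ratios of 0.989 and 0.979.

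Genes that lead to interferon production had a median of 0.03 between transgenic and wild type (7 of 13 higher, 1 at least 2-fold). That 1 was Tlr7, an endosomal receptor for single-stranded RNA, at 5.17 FPKM in the library labelled knockout and 7.80 in transplanted wild type, and at 7.35 in the transgenic library and 2.62 in steady-state wild type. Tmem173, the gene of the adaptor STING, was at 29.6 FPKM in the library labelled knockout, 46.4 in transplanted wild type, 53.7 in the transgenic library and 47.9 in steady-state wild type. Inhibitor genes had a median of 0.04 (7 of 13 higher, none 2-fold). After rescaling to the same sum the medians of both lists were below 0, at -0.09 and -0.08. In the library labelled knockout, against transplanted wild type, 13 of 13 production genes were lower (median -0.19), as were 7 of 8 receptor and kinase genes (-0.20), 6 of 7 transcription factor genes (-0.24) and 10 of 13 inhibitor genes (-0.17), and none of these was 2-fold lower. After rescaling to the same sum, 10, 7, 6 and 9 of them were lower. Of the wider list of interferon-inducible genes, described next, 37 of 56 were lower (median -0.10), and 29 of 56 after that rescaling. Of all genes, 56.0% were lower as deposited and 1.18% at least 2-fold, at a median of -0.03. That rescaling moved the median of all genes to 0.06. A wider list of other interferon-inducible genes had a smaller median than the 46, with 49 of 57 higher in the transgenic library, 5 at least 2-fold and the median at 0.38. Of all genes, 46.7% were higher in that library than in steady-state wild type, and 1.22% at least 2-fold. Without the genes it shares with the interferon gamma list below, 42 of 50 were higher, 2 at least 2-fold, at a median of 0.34. Slfn1 was at 3.21, 5.63, 4.34 and 0.827 FPKM in the library labelled knockout, transplanted wild type, the transgenic library and steady-state wild type, and B2m, the light chain of MHC class I, at 2586, 2590, 2744 and 1945 FPKM in those libraries. Of 12 genes chosen as responding mainly to interferon gamma, all 12 were higher in the transgenic library than in steady-state wild type (median 0.48, 3 at least 2-fold), and 11 were after rescaling to the same sum. Between the library labelled knockout and transplanted wild type the median of these 12 was -0.34, with 9 lower, against 56.0% of all genes. After rescaling to the same sum that median was -0.24, with 8 lower. As deposited 3 were higher, among them Irgm1 (ratio 1.22, 1.11 to 1.33). Iigp1, a GTPase of that kind, was at 3.37 FPKM in the library labelled knockout and 3.59 in transplanted wild type. Its level was 3.32 FPKM in the transgenic library and 0.649 in steady-state wild type. Cd74, the MHC class II chaperone, was at 1569 FPKM in the library labelled knockout and 2586 in transplanted wild type. Its level was 2107 FPKM in the transgenic library and 1411 in steady-state wild type.

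Markers of other cell types differed along with some of these results. The 17 neutrophil markers summed to 665 FPKM in the library labelled knockout, 1730 in transplanted wild type, 1870 in the transgenic library and 782 in steady-state wild type. All 17 were higher in the transgenic library than in steady-state wild type (median 1.10, 10 at least 2-fold), and 16 of 17 were lower in the library labelled knockout than in transplanted wild type (median -1.32, 13 at least 2-fold). Of all genes, 46.7% were higher in the first comparison (1.22% at least 2-fold) and 56.0% lower in the second (1.18% at least 2-fold). The 14 monocyte and macrophage markers summed to 136, 240, 208 and 143 FPKM in the library labelled knockout, transplanted wild type, the transgenic library and steady-state wild type. Ly86 alone was at 84.9, 113, 124 and 94.6 FPKM in those libraries. Between the transplanted libraries the median was -0.95 for monocyte markers. In transplanted against steady-state wild type, 17 of 17 neutrophil markers were higher (median 0.98, 8 at least 2-fold). So were 12 of 13 monocyte markers (median 1.185, 7 at least 2-fold). Of all genes, 45.9% were higher in that comparison and 1.67% at least 2-fold. Without the 10 genes that myeloid or plasmacytoid dendritic cells also express, the median transgenic minus wild-type difference over the rest was 0.74 (35 genes). The part of myeloid cells in the low values of steady-state wild type was not tested. Of the genes lowest in the library labelled knockout relative to transplanted wild type, Ifitm3 and Gbp2 are expressed by myeloid cells as well, and the part of those cells in that difference was not tested.

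Markers of plasmacytoid dendritic cells, the main producers of interferon alpha, summed to 2260 FPKM in the library labelled knockout, 2610 in transplanted wild type, 2140 in the transgenic library and 2300 in steady-state wild type, in which genes shared with B cells such as Ly6d and Spib are counted. Of the 12, 5, 5, 6 and 5 reached 1 FPKM in those libraries. Siglech, Klk1 and Cd209d were listed at 0 in the transgenic library, and only Cd209d in steady-state wild type. No conventional dendritic cell marker of 8 reached 1 FPKM in any library. The 12 T and NK cell markers summed to 21.8 FPKM in the library labelled knockout, 29.5 in transplanted wild type, 19.4 in the transgenic library and 21.2 in steady-state wild type. Eosinophil and mast cell markers summed to 12.2, 14.8, 52.0 and 8.27 FPKM in those libraries, erythroid markers to 15.1, 10.7, 7.26 and 55.0 FPKM, and plasma cell markers to 329, 308, 494 and 696 FPKM. Single genes weigh heavily in some of these sums. Lck was at 15.6, 17.4, 12.5 and 14.3 FPKM within the T and NK list. Within the plasma cell list, Irf4 was at 220, 181, 173 and 259 FPKM and Igj at 7.23, 16.6, 204 and 306 FPKM. Within the pre-B list, Vpreb1, a surrogate light chain gene of early pre-B cells, was also lowest in steady-state wild type, at 38.6 FPKM in the library labelled knockout, 30.2 in transplanted wild type, 34.4 in the transgenic library and 7.31 in steady-state wild type. Vpreb2, the paralog of Vpreb1, was at 8.86 FPKM in the library labelled knockout, 7.59 in transplanted wild type and 3.74 in the transgenic library and was listed at 0 in steady-state wild type. Of the 16 pre-B markers, 3 were at least 2-fold higher in the transgenic library than in steady-state wild type and 11 were lower at all (median -0.09). Of all genes, 1.22% were at least 2-fold higher in that comparison and 53.3% lower. Likewise 3 were at least 2-fold higher in transplanted than in steady-state wild type (median -0.20), against 1.67% of all genes. The part of cell stage in the low values of steady-state wild type was not tested.

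**Figure D4:**
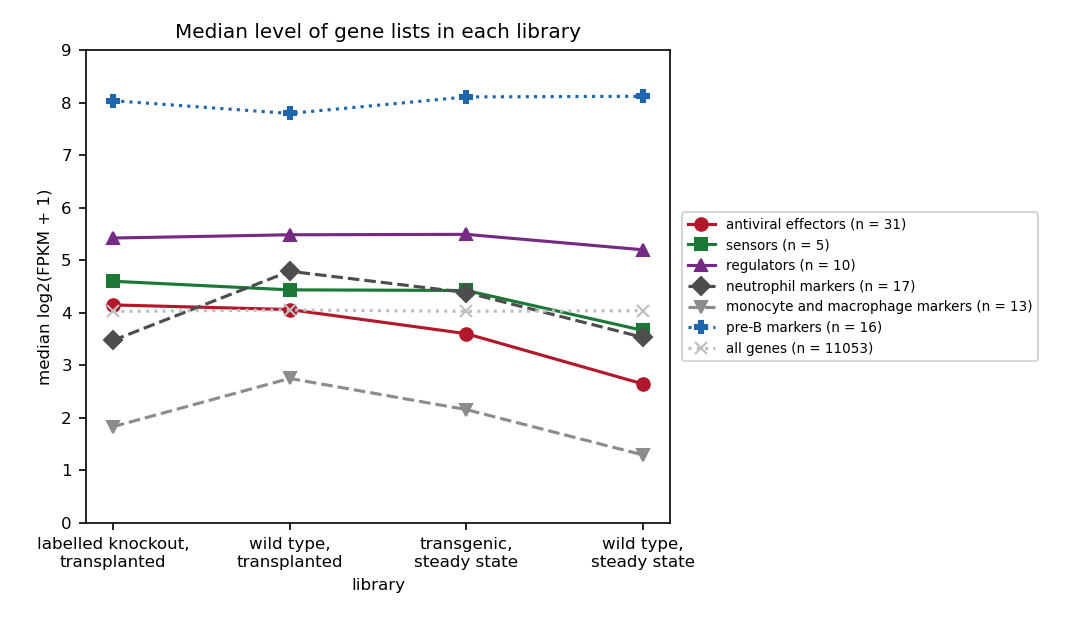
Median log2(FPKM + 1) of gene lists in each of the 4 libraries, over the genes of each list at 1 FPKM or more in any library, with lines joining the points of a list for sight only. Effectors stand at 4.15 in the library labelled knockout, 4.06 in transplanted wild type, 3.60 in the transgenic library and 2.65 in steady-state wild type, whereas neutrophil markers stand at 3.48, 4.79, 4.39 and 3.53 in those libraries.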

How the data were processed

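Polyadenylated RNA of pre-B cells was sequenced with 1 library per group; per the labels' protocols, total RNA came from a miRNeasy kit and libraries from a TruSeq stranded mRNA kit. The authors deposited 1 value per gene symbol and library, read here as FPKM, since the values are not whole and Cufflinks stands in the processing notes. Per the submitters' processing notes, TopHat2 2.0.13, Bowtie2 2.2.3, SAMtools 0.1.19, Cufflinks 2.2.1 and mm10 were used. The role and order of the tools, the annotation, filters and any scaling between libraries were not given in the sources used here.

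From these values, reads were estimated from the steps of 1 read, taking the transcript length minus 210 nt; 65.2% to 70.5% of low values came out within 0.1 of a whole read. Where a gene has several transcripts this is rough. Each difference is log2(FPKM + 1) in the first-named library less that in the second, a scale that shrinks low genes; a gene entered when either library of the pair reached 1 FPKM, and 2-fold means a difference of 1. The computation of the differences, filter and intervals was checked on simulated reads with counting error alone. Spread between animals, duplicate reads and reads shared by paralogs had no part in that simulation. Alternatives were a pseudocount of 0.1, no filter or 5 FPKM, 3 rescalings, and leaving out genes of other cell types or with close paralogs. All 46 genes could be named; of other lists, the up to 4 most abundant and up to 2 most different between transgenic and wild type. Members and lists were chosen with earlier results of these data known. Gene positions are from GENCODE M21 and promoters from RefSeq, both on GRCm38. Python 3.11.15, numpy 2.4.6, pandas 2.3.3 and SciPy 1.17.1 were used.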

Additional observations from a re-analysis of the deposited data

How the results depend on the processing

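Over 13 results and 8 alternatives, 96 of 104 values stayed within a set tolerance and 8 moved beyond it. No median changed sign, and a count has no sign to change, so reversal was looked for in medians only. For a count the tolerance was 1.5 times, and for a median the 95% binomial interval of the median over the genes, which is wide for lists of this size. Within it, the count of 2-fold genes was as low as 8 for transgenic over wild type and as high as 25 for transplanted over steady-state wild type. With a pseudocount of 0.1 in place of 1, 19 genes were at least 2-fold higher in the transgenic library than in steady-state wild type (12 with 1), 1 was 2-fold higher in the library labelled knockout than in transplanted wild type (0 with 1), and the median of effectors between transgenic and wild type was 1.035 (0.90 with 1). That follows from the pseudocount itself, which damps low genes. After rescaling to the same sum, the median between the library labelled knockout and transplanted wild type was 0.11 (0.01 as deposited). That rescaling shifts all genes, and their median moved from -0.03 to 0.06. The deposited values summed to 518685 FPKM in the library labelled knockout and 557300 in transplanted wild type. Why the sums differ was not tested. Without genes that myeloid or plasmacytoid dendritic cells also express, 13 of 36 genes were at least 2-fold higher in transplanted than in steady-state wild type (20 of 46 with them). Without genes with close paralogs, 6 of 29 were 2-fold higher in the transgenic library, 9 of 30 were 2-fold higher in transplanted wild type, and 29 of 30 were lowest in steady-state wild type; fewer genes are counted in each. Medians ranged over the alternatives between 0.70 and 0.91 for transgenic minus wild type and between 0.77 and 1.13 for transplanted minus steady-state wild type. No paired analysis was possible because each group has 1 library. Each of the 5 genes under 20 reads in steady-state wild type has a wide interval, and the spread between animals is unknown for every gene.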
